A study of Mus musculus with 8 samples.

Results

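The Notch receptors, ligands and targets described here are 10 genes: the receptors Notch1, Notch2, Notch3 and Notch4, the ligands Jag1 and Dll1, and the transcriptional targets Hes1, Hey1, Hey2 and Heyl. They were taken by gene symbol from the expression tables of 8 libraries, and all 10 were found among the 24421 genes listed there. The libraries are poly-A RNA-seq of primary calvarial osteoblastic cells, bone-forming precursors released by enzymes from the skull bones of newborn C57BL/6 mice. The 4 groups, with 2 libraries each, are WT at day 0, WT at day 12, Def6-/- at day 0 and Def6-/- at day 12. Day 0 cells had been expanded in medium without ascorbic acid. Day 12 cells had been kept for 12 days in osteogenic medium with ascorbic acid and β-glycerophosphate. The Def6-/- mice lack the guanine nucleotide exchange factor Def6 in every cell, on the same strain background as the WT littermates, and no sorting is described for the cultures sequenced here. The comparisons ask which Notch genes move during osteoblast differentiation and whether loss of Def6 alters them.

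Notch receptors sit in the cell membrane and are activated by ligands of the Jagged and Delta families on neighboring cells. Ligand binding exposes the receptor to ADAM proteases and then to γ-secretase, which frees the intracellular domain to enter the nucleus, bind the DNA-binding protein RBPJ and recruit Mastermind coactivators. The best known targets are the Hes and Hey genes, which encode basic helix-loop-helix repressors. In the skeleton, Notch signaling is known to hold back the maturation of osteoblast precursors, and HES and HEY proteins are known to restrain RUNX2, the master regulator of the osteoblast fate.

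Levels are given as normalized CPM, that is, CPM relative to the reads on genes after scaling with TMM factors, and differences between groups as log2(normalized CPM + 1). Between 2414856 and 3482837 reads on genes were counted per library. The WT day 0 replicate 1 library stood apart from the other 7. In it 34.9% of the reads did not align uniquely, against 21.4% to 26.6% in the others. The replicates of WT day 0 were more than 2-fold apart for 2394 genes, against 261 to 454 genes in the other groups. This difference followed gene length: in WT day 0 the median log2 difference of replicate 1 from replicate 2 was 0.81 for 1384 genes with under 2 kb of exon and -0.55 for 2264 genes with 8 kb or more. In the other 3 groups every such median was within 0.09 of 0. Across genes the correlation of this difference with log2 exon length was -0.52 in WT day 0 and between -0.13 and -0.04 in the other groups, a description over 11925 genes that are not independent replicates. Changes with day and genotype differences at day 0 that rest on this library are given with and without it. Leaving it out leaves 1 library in WT day 0, which is then assumed to vary like the libraries of the other groups.

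**Figure D1:**
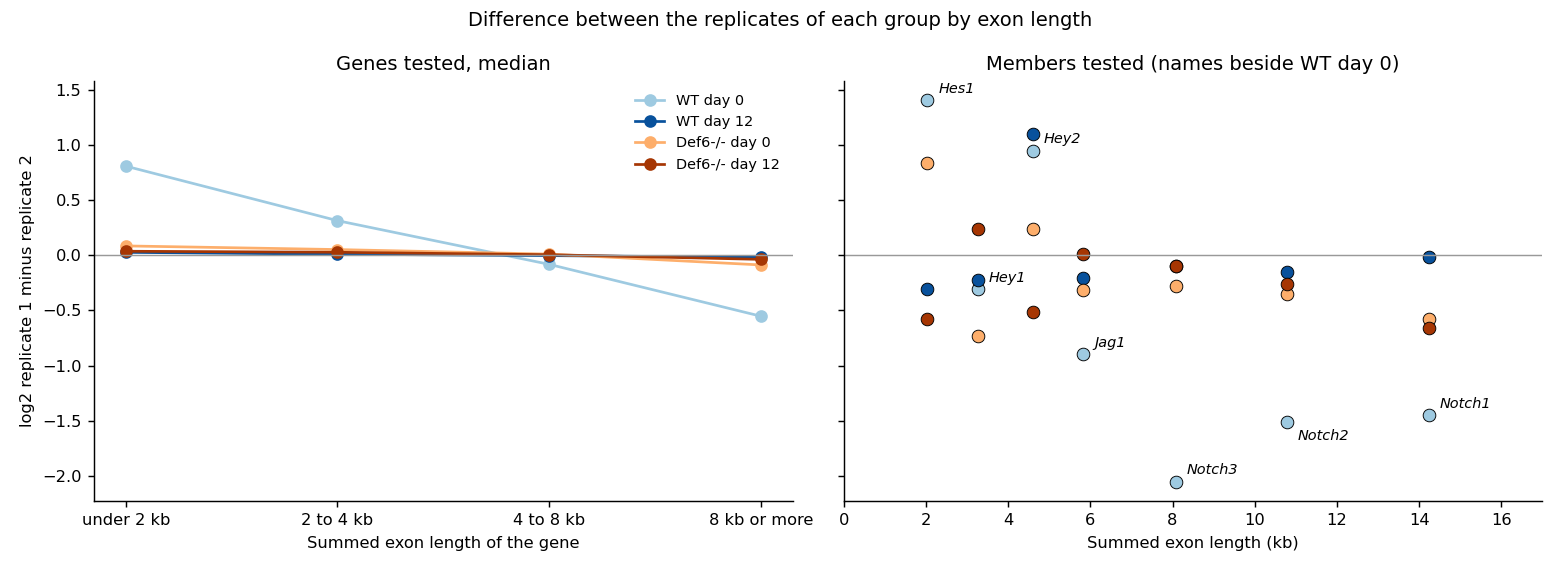
The left panel plots the median log2 difference between replicate 1 and replicate 2 of each group against the summed exon length of the genes tested, and the right panel plots the same difference for the 7 members tested, with exon length in kb. WT day 0 falls from 0.81 to -0.55 with length while the other groups stay near 0, and Notch1, Notch2 and Notch3, the longest members, lie at -1.45, -1.51 and -2.05 in WT day 0.

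Def6 itself was counted with 112 to 186 reads in the WT libraries and with 0 to 2 reads in the Def6-/- libraries, as the labels give it. Osteoblast genes marked the cultures. Alpl, the tissue-nonspecific alkaline phosphatase, was at 13.2 to 20.9 normalized CPM at day 0 and 238 to 389 at day 12. The summed level of 11 osteoblast markers was 28973 to 43544 at day 0 and 81624 to 115900 at day 12. Col1a1 and Col1a2 hold most of that sum. The days overlapped for Runx2, Sp7, Spp1 and Sost, with Spp1 at 2529 to 6741 at day 0 and 1998 to 3335 at day 12. Markers of other cell types differed between days too. The sum of 14 macrophage markers, without Ptprc, was 180 to 402 at day 0 and 3140 to 6271 at day 12. Of 15 listed, 14 were tested, with Ptprc and without Cd163. Of these, 13 were called higher in WT cells, where 12.7% of all genes tested were. Aif1, at most 0.789 normalized CPM at day 0, passed the filter only through WT day 12. Ptprc is in this count although 3 of its values were not whole reads. Nothing is read from the count for these reasons. The sum of 12 mural and smooth muscle markers went from between 7488 and 17951 at day 0 to between 2881 and 3073 at day 12. Acta2 and Tagln hold most of that sum, and the list moved both ways: of 9 tested, Acta2, Tagln, Cspg4 and Mcam fell and Abcc9 rose in each genotype. Among all genes tested, 5.64% were called lower and 12.7% higher in WT, and 4.79% and 12% in Def6-/-. In the mural list the pericyte marker Higd1b had no read in any library and Kcnj8 stayed at or below 0.43. The sum of 14 endothelial markers was 23.3 to 26.0 at day 0 and 29.6 to 37.8 at day 12, with Tie1, Emcn and Sox17 at 0 throughout. The part of such cells in the changes with day was not tested. In bulk RNA, fewer cells of a type and less RNA per cell cannot be told apart.

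In the mouse genome (GRCm38) the members are spread over 6 chromosomes, and 3 of them share chromosome 17 with Def6 (28207778 to 28228608). Notch3 (17, 32120820 to 32166852, minus strand) lies 3.89 Mb from Def6, Notch4 (17, 34564268 to 34588503, plus strand) 6.34 Mb and Dll1 (17, 15367354 to 15376872, minus strand) 12.8 Mb. For these 3 a genotype difference could not be told apart from DNA that flanks the Def6 mutation. Notch1 (2, 26457903 to 26516663, minus strand) and Jag1 (2, 137081456 to 137116644, minus strand) lie on chromosome 2, and Notch2 (3, 98013527 to 98150361, plus strand) and Hey1 (3, 8663359 to 8667256, minus strand) on chromosome 3. Hes1 (16, 30064384 to 30067796, plus strand), Hey2 (10, 30832359 to 30842801, minus strand) and Heyl (4, 123233556 to 123249875, plus strand) are alone on theirs. Notch1, Notch3 and Dll1 overlap antisense transcripts (0610009E02Rik and Gm13568, Gm17276 and A930024N18Rik), and since the strand setting of the counting is not given in the sources used here, their reads could not be told apart from those of these neighbors.

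The promoters of Notch3, the receptor that was higher in all day 12 libraries, and of Hey2, the target with the largest fall in the mean of both genotypes, are shown, because the RBPJ core motif and the N-box bound by HES repressors are the elements through which the pathway is best known to act on DNA. RefSeq (GRCm38.p6) held a promoter for 7 of the 10 members, without Hes1, Hey1 and Heyl. The 250 bases before the start are printed 5′ to 3′ on the strand of the gene, with motif matches in capitals. Hey2 is chr10:30842784-30843033 and Notch3 is chr17:32166891-32167140.
Hey2: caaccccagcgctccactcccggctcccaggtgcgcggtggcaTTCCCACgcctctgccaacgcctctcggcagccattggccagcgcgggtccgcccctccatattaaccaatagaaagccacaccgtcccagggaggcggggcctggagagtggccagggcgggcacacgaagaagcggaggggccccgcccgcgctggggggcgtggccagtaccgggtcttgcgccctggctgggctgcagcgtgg
Notch3: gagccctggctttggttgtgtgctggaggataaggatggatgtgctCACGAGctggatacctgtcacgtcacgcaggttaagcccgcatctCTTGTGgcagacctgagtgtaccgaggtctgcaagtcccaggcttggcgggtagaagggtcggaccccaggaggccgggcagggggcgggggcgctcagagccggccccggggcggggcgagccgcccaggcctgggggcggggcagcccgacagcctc
In Hey2 the capitals mark the RBPJ core GTGGGAA, read on the minus strand, with its first letter at position -207 from the start. Of the 7 members only Hey2 held that motif on either strand, and 5.42% of 32851 promoters of this length hold it. In Notch3 they mark 2 matches to the N-box CACNAG, at position -204 on the plus strand and at position -159 on the minus strand. Notch1 and Notch2 held 1 match each, and 36.7% of all promoters hold at least 1. No 2 of these matches overlap. The E-box CACGTG and the TATA motif TATAAA, searched on both strands too, are in none of these windows of the 7 members and in 6.02% and 12.4% of all promoters. A match describes letters and not binding.

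Among the receptors, Notch2 was expressed most. Per length of exon, Notch2 was at 11.1 ± 7.60 normalized CPM per kb in WT day 0 (SD, n = 2), 12.6 ± 0.95 in WT day 12, 16.1 ± 2.79 in Def6-/- day 0 and 12.7 ± 1.61 in Def6-/- day 12. Notch3 followed with 4.97 ± 4.4 in WT day 0, 10.8 ± 0.542 in WT day 12, 7.13 ± 1 in Def6-/- day 0 and 11.4 ± 0.571 in Def6-/- day 12. Notch1 was next with 3.32 ± 2.22, 4.06 ± 0.0401, 4.50 ± 1.28 and 3.44 ± 1.11 in the same order of groups. At day 0 the order of Notch3 and Notch1 depends on the exon length used, 14.2 kb for Notch1 and 8.09 kb for Notch3. Without division by length, Notch1 was at 24.9 and 69.6 normalized CPM in WT day 0, against 15.0 and 65.4 for Notch3. In Def6-/- day 0 these were 51.2 and 77.0 against 51.9 and 63.4. At day 12 the libraries of Notch2 and Notch3 overlapped (11.6 to 13.9 against 10.5 to 11.8 per kb), and both receptors lay above those of Notch1 (2.65 to 4.23). Notch4, known from the endothelium, had group means of only 0.0616 to 0.155 per kb.

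**Figure D2:**
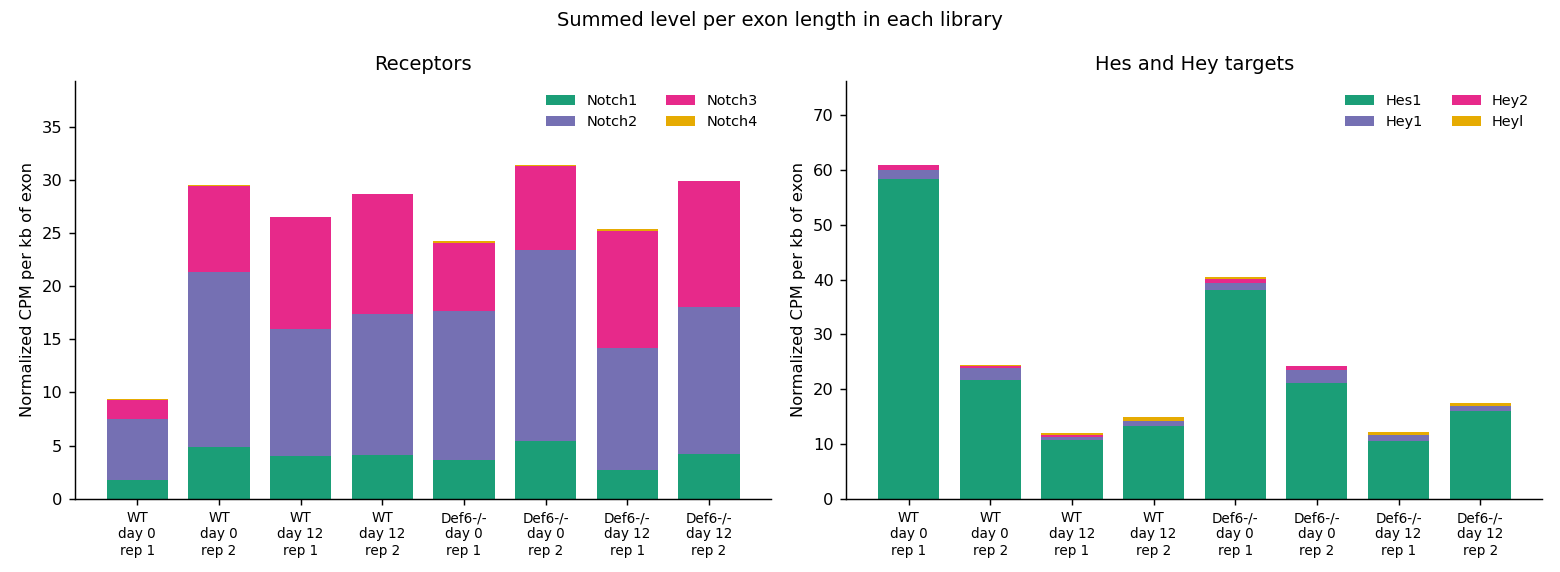
Stacked bars give the normalized CPM per kb of exon of the 4 receptors (left) and the 4 Hes and Hey targets (right) in each of the 8 libraries. Notch2 and Notch3 fill most of each receptor bar, Hes1 fills at least 86.7% of each target bar, and the receptor bar of WT day 0 replicate 1 ends at 9.36 while the other 7 reach 24.3 or more.

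The make-up of the receptors shifted with day toward Notch3. Notch3 held 19.8% to 27.4% of the summed receptor level per length in the 4 day 0 libraries and 39.1% to 43.4% in the 4 day 12 libraries. Notch2 held 55.7% to 61.0% at day 0 and 45.1% to 46.4% at day 12. Days did not overlap for either receptor. WT day 0 replicate 1 held the lowest Notch3 share, and without it the day 0 range was 24.9% to 27.4%. The mean share of Notch3 was 24.6% ± 3.38 at day 0 and 40.4% ± 2.01 at day 12 (SD, n = 4 libraries, 2 of each genotype), a difference of 15.7 percentage points with an exact two-sided permutation p = 0.0286, the smallest that 4 libraries against 4 allow. For Notch2 the difference was -12.2 percentage points (exact permutation p = 0.0286). Notch1 went from 16.8% ± 1.59 to 13.5% ± 2.09 (n = 4, exact permutation p = 0.0571). These 3 shares add to nearly the whole, so they are not independent of each other, and a share shows unequal change among the receptors and not that any of them stayed the same.

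Notch3 itself, a receptor best known from vascular smooth muscle and pericytes and present in mesenchymal precursors, was higher in every day 12 library than in every day 0 library. In WT cells it was at 15.0 and 65.4 normalized CPM in replicates 1 and 2 at day 0 and at 84.6 and 90.9 at day 12. In Def6-/- cells it was at 51.9 and 63.4 at day 0 and at 89.1 and 95.6 at day 12. The WT day 0 replicate 1 value stood far below all others. The log2 difference between days was 1.44 in WT (SE 0.52, limma adjusted p = 0.0929) and 0.68 in Def6-/- (SE 0.52, limma adjusted p = 0.443), so neither passed the threshold of 0.05. Without WT day 0 replicate 1, the WT difference was 0.42 (SE 0.17, adjusted p = 0.0965) and the Def6-/- difference, whose 4 libraries were unchanged but whose pooled spread was smaller, was 0.68 (SE 0.14, adjusted p = 0.00290). Averaged over both genotypes it was 1.06 (SE 0.37, adjusted p = 0.0574), and 0.55 (SE 0.11, adjusted p = 0.00180) without that library. Over the 8 libraries Notch3 went from 48.9 ± 23.4 at day 0 to 90.0 ± 4.54 at day 12 (SD, n = 4), 1.84-fold, with an exact permutation p = 0.0286. Most of the mural and smooth muscle markers above that were called with day went the other way from Notch3. Acta2, smooth muscle actin, was at 4280 to 8316 normalized CPM at day 0 and 1536 to 1704 at day 12. Tagln, Cspg4 and Mcam were called lower in each genotype too, and the days overlapped for Pdgfrb and Rgs5. Only Abcc9, a pericyte marker, was called higher, with at most 0.681 at day 0 and 2.30 to 5.02 at day 12. Abcc9 and Des passed the filter only through day 12, so that their being tested is tied to their being high there.

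Notch1 and Notch2, receptors with broad expression in bone, did not pass the test in either genotype. Notch1 was at 24.9 and 69.6 normalized CPM in WT day 0, 57.4 and 58.2 in WT day 12, 51.2 and 77.0 in Def6-/- day 0 and 37.8 and 60.2 in Def6-/- day 12. Notch2 was at 61.6 and 177 in WT day 0, 129 and 144 in WT day 12, 152 and 195 in Def6-/- day 0 and 125 and 149 in Def6-/- day 12. The days overlapped for both. The WT difference between days was 0.46 for Notch1 (SE 0.44) and 0.38 for Notch2 (SE 0.41), and without WT day 0 replicate 1 these turned to -0.26 (SE 0.28) and -0.38 (SE 0.18). In Def6-/- cells they were -0.39 (SE 0.44) and -0.33 (SE 0.41). Without that library the mean over both genotypes for Notch2 was -0.36 (SE 0.11, limma adjusted p = 0.0246), against 0.02 (SE 0.29, adjusted p = 0.961) with all 8 libraries.

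Notch4 was counted with 0 to 4 reads in each library (10 reads at day 0 and 6 at day 12 in all), which did not pass the filter on low values, and no difference was detectable at this depth. Its ratio of day 12 to day 0 was 0.617, with a 95% interval from 0.184 to 1.87 that covers counting error only.

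**Figure D3:**
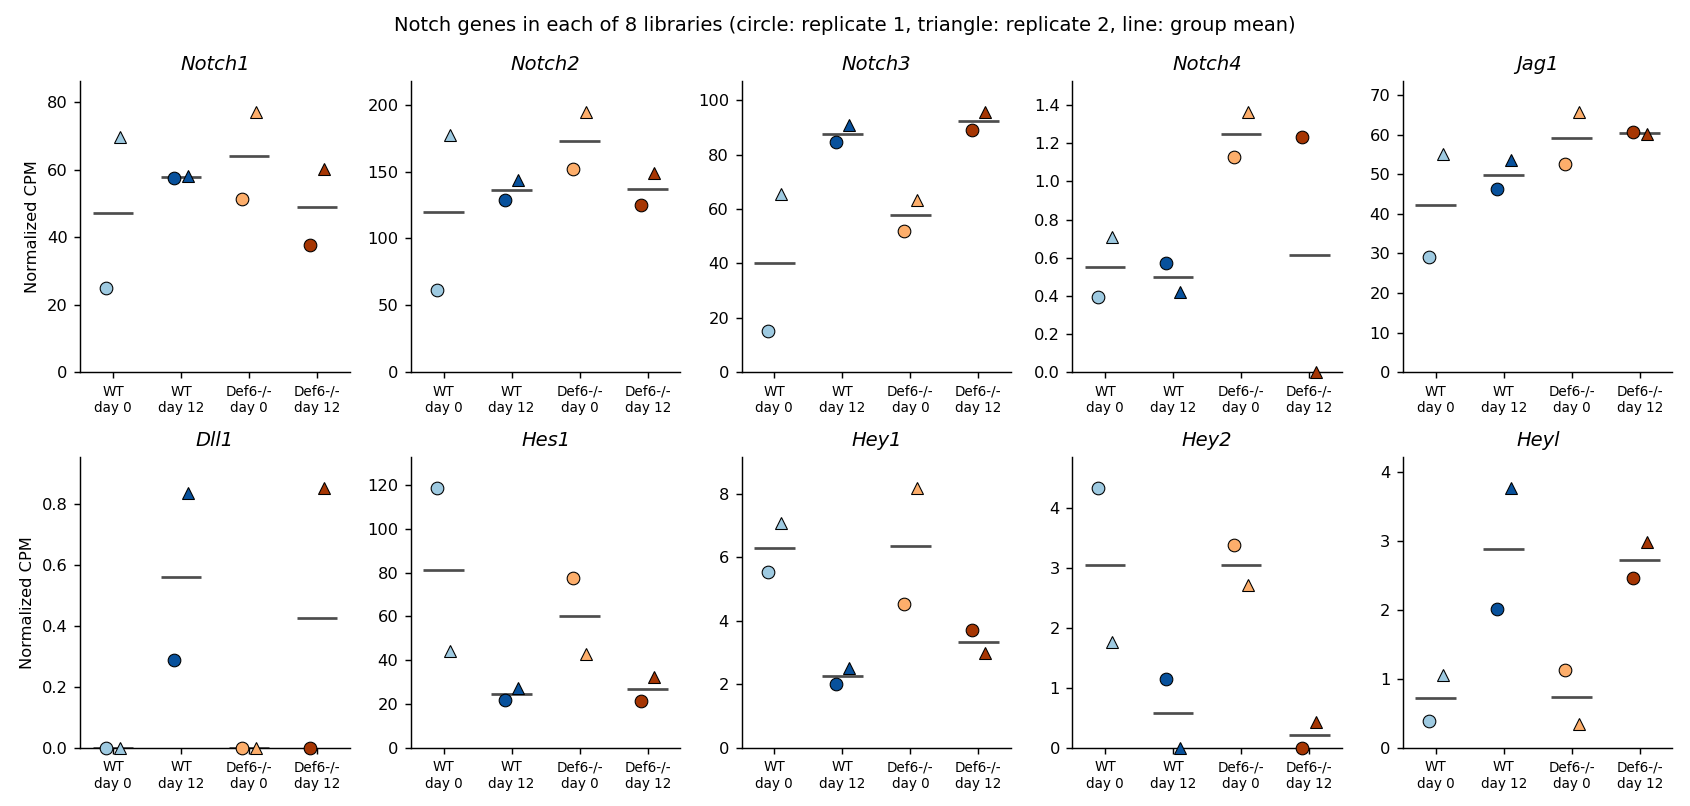
Each panel shows the normalized CPM of a member in the 8 libraries by group, with a circle for replicate 1, a triangle for replicate 2 and a line for the group mean. Hes1, Hey1 and Hey2 lie lower and Notch3 and Heyl higher in all 4 day 12 libraries than in all 4 day 0 libraries, and WT day 0 replicate 1 is the lowest library for Notch1, Notch2, Notch3 and Jag1.

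Of the ligands, Jag1, which encodes the membrane ligand Jagged 1 and is the main Notch ligand known from osteoblasts, made up nearly the whole. It held 93.7% to 99.1% of the summed level per length of Jag1, Jag2, Dll1, Dll3 and Dll4. Jag1 was at 29.2 and 55.1 normalized CPM in WT day 0, 46.2 and 53.6 in WT day 12, 52.7 and 65.8 in Def6-/- day 0 and 60.8 and 60.2 in Def6-/- day 12. Apart from WT day 0 replicate 1 all values lay between 46.2 and 65.8. The difference between days was 0.30 in WT (SE 0.29, limma adjusted p = 0.514), -0.15 (SE 0.19) without WT day 0 replicate 1, and 0.04 in Def6-/- (SE 0.29, adjusted p = 0.952). Dll1, a Delta ligand, had no read in any day 0 library and 5 reads in all at day 12. A count of 0 over the 4 day 0 libraries allows a level of up to 0.274 normalized CPM (3 reads), so no change could be shown for Dll1 at this depth.

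The targets Hes1, Hey1 and Hey2 were lower in every day 12 library than in every day 0 library. Hes1, the target with the widest use among tissues, was by far the most abundant, at 40.0 ± 25.9 normalized CPM per kb in WT day 0 (SD, n = 2), 29.6 ± 12 in Def6-/- day 0, 12 ± 1.88 in WT day 12 and 13.2 ± 3.85 in Def6-/- day 12. Per length it held 86.7% to 95.6% of the summed level of the 4 targets. That sum was 24.2 to 61.0 at day 0 and 12 to 17.5 at day 12.

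Hes1 fell with day in WT cells. It was at 119 and 44.2 normalized CPM in replicates 1 and 2 of WT day 0 and at 21.8 and 27.2 in WT day 12. In Def6-/- cells it was at 77.5 and 42.9 at day 0 and at 21.3 and 32.4 at day 12. The 2 libraries of a day 0 group differed more from each other than those of a day 12 group did, and the day 0 values did not overlap those of day 12. The WT difference was -1.54 on the log2 scale (SE 0.46, limma adjusted p = 0.0490) and passed the threshold. It did not without WT day 0 replicate 1 (-0.83, SE 0.33, adjusted p = 0.0913) or without any other library except WT day 0 replicate 2, and over 15 alternatives its adjusted p ranged from 0.000224 to 0.220 with the direction kept in all. In Def6-/- cells the difference was -1.10 (SE 0.46, adjusted p = 0.145), and -1.10 (SE 0.27, adjusted p = 0.00845) in the fit without WT day 0 replicate 1. As a mean of both genotypes Hes1 fell by 1.32 (SE 0.32, adjusted p = 0.0142), and by 0.97 (SE 0.22, adjusted p = 0.00340) without that library. Hes1 is the shortest member, with 2.04 kb of exon, and the excess of replicate 1 over replicate 2 in WT day 0 was 1.41 for it, above the median of 0.31 for genes of 2 to 4 kb. Over the 8 libraries Hes1 was 2.76-fold lower at day 12, from 70.9 ± 35.7 to 25.7 ± 5.22 (SD, n = 4, exact permutation p = 0.0286).

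Hey1 and Hey2 encode the HEY repressors, Hey2 being best known from the heart and arteries. Hey1 was at 5.52 and 7.07 normalized CPM in WT day 0, 2.01 and 2.51 in WT day 12, 4.52 and 8.18 in Def6-/- day 0 and 3.69 and 2.99 in Def6-/- day 12, with 6 to 24 reads in a library. Days did not overlap, and WT day 0 replicate 1 lay among the other day 0 libraries. Its difference between days was -1.16 in WT (SE 0.36, limma adjusted p = 0.0565) and -0.72 in Def6-/- (SE 0.36, adjusted p = 0.223). The mean over both genotypes fell by 0.94 for Hey1 (SE 0.25, adjusted p = 0.0218), and by 1.02 (SE 0.30, adjusted p = 0.0152) without WT day 0 replicate 1. This call held in 8 of 14 alternatives, with an adjusted p of up to 0.0880. From reads pooled by day Hey1 was 2.35-fold lower at day 12, with a 95% counting interval from 1.5 to 3.75 and an exact permutation p = 0.0286 over the libraries (n = 4).

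Hey2 was seen in few reads, most of them at day 0. It was counted with 11 and 5 reads in WT day 0, 4 and 0 in WT day 12, 9 and 8 in Def6-/- day 0 and 0 and 1 in Def6-/- day 12, which makes 4.34, 1.77, 1.15, 0, 3.39, 2.73, 0 and 0.427 normalized CPM in that order. All day 12 libraries lay below all day 0 libraries. Hey2 reached a mean deposited CPM of 1 only in Def6-/- day 0, so that its being tested is tied to its being high there. The difference was -1.76 in Def6-/- (SE 0.51, limma adjusted p = 0.0477), and -1.80 (adjusted p = 0.0355) with no filter. Without any 1 of the 4 Def6-/- libraries the adjusted p exceeded 0.05, as it did with edgeR and DESeq2. In WT it was -1.39 (SE 0.51, adjusted p = 0.0975), and -0.92 (SE 0.62) without WT day 0 replicate 1. Averaged over both genotypes Hey2 fell by 1.58 (SE 0.36, adjusted p = 0.0104), with an adjusted p of at most 0.0484 in 14 alternatives. These fitted values depend on the scale at so few reads, and the Def6-/- difference ran from -0.96 with CPM as deposited to -3.87 with DESeq2 (adjusted p = 0.0400 and 0.146). The ratio of day 0 to day 12 from pooled reads was 6.42 (33 against 5 reads), with a 95% counting interval from 2.49 to 21.1. The RBPJ core printed above lies in the promoter of Hey2, and its part in the fall of Hey2 was not tested.

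Heyl, a HEY family target known from smooth muscle, went the other way. It was at 0.395 and 1.06 normalized CPM in WT day 0, 2.01 and 3.77 in WT day 12, 1.13 and 0.341 in Def6-/- day 0 and 2.46 and 2.99 in Def6-/- day 12. Every day 12 library, with 6 to 9 reads, was above every day 0 library, with 1 to 3 reads. Heyl did not pass the filter. With no filter the difference was 1.13 in WT (SE 0.38, limma adjusted p = 0.0895), 1.10 in Def6-/- (SE 0.38, adjusted p = 0.104) and 1.11 averaged over both (SE 0.27, adjusted p = 0.0168). The ratio of day 12 to day 0 from pooled reads was 3.73 (29 against 8 reads), with a 95% counting interval from 1.66 to 9.44 and an exact permutation p = 0.0286 over the libraries (n = 4).

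In counts, 7 of the 10 members passed the filter and Notch4, Dll1 and Heyl did not. In WT cells 1 of the 7, Hes1, was lower and 0 were higher at day 12, while 5.64% of all 12348 genes tested were called lower and 12.7% higher. At an unadjusted p under 0.05, 4 of the 7 differed (Notch3 higher, and Hes1, Hey1 and Hey2 lower), against 32.6% of all genes. edgeR called 1 lower and 0 higher (6.32% and 12.4% of all genes), and so did DESeq2 (6.11% and 10.9%). In Def6-/- cells 1 of the 7, Hey2, was lower and 0 were higher, against 4.79% lower and 12% higher among all genes, and nothing is read from this count, since Hey2 passed the filter through the high group alone. There 2 had an unadjusted p under 0.05 (Hes1 and Hey2), against 30.1% of all genes, and edgeR and DESeq2 called 0 in either direction. Of all genes edgeR called 4.45% lower and 11.6% higher there, and DESeq2 3.89% and 10.4%. In the mean over both genotypes, a contrast added after the data were seen, 3 of the 7 were lower and 0 higher by limma, against 12.7% lower and 19.3% higher among all genes. edgeR called 3 lower and 0 higher there (13.4% and 19% of all genes), and DESeq2 called 2 lower and 1 higher (11.7% and 16.6%). In limma 4 had an unadjusted p under 0.05, against 43% of all genes. Without WT day 0 replicate 1 the limma counts of members were 0 higher and 0 lower in WT (Notch3, Hes1 and Hey1, 3 of the 7, had an unadjusted p under 0.05), where 15.4% and 9.69% of all genes were called. They were 1 higher (Notch3) and 2 lower (Hes1 and Hey2) in Def6-/-, where 19.8% and 15% were called, and 1 higher (Notch3) and 4 lower (Notch2 and the 3 targets) as a mean of both, where 24.2% and 19.7% were called. Days did not overlap for 4 of the 7, Notch3 higher and the 3 targets lower, where 21.9% of the genes tested were higher and 16.9% lower without overlap. Hey2 is in this count too, and in those above for the mean of both genotypes and the Def6-/- counts that name it. Nothing is read from any of these, for the reason given. The median log2 difference of the 7 members was 0.30 in WT and -0.39 in Def6-/-, beside -0.0015 and 0.0090 over all genes tested, and without WT day 0 replicate 1 it was -0.38 in WT and -0.39 in Def6-/-. These medians leave out the 3 members that did not pass the filter.

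**Figure D4:**
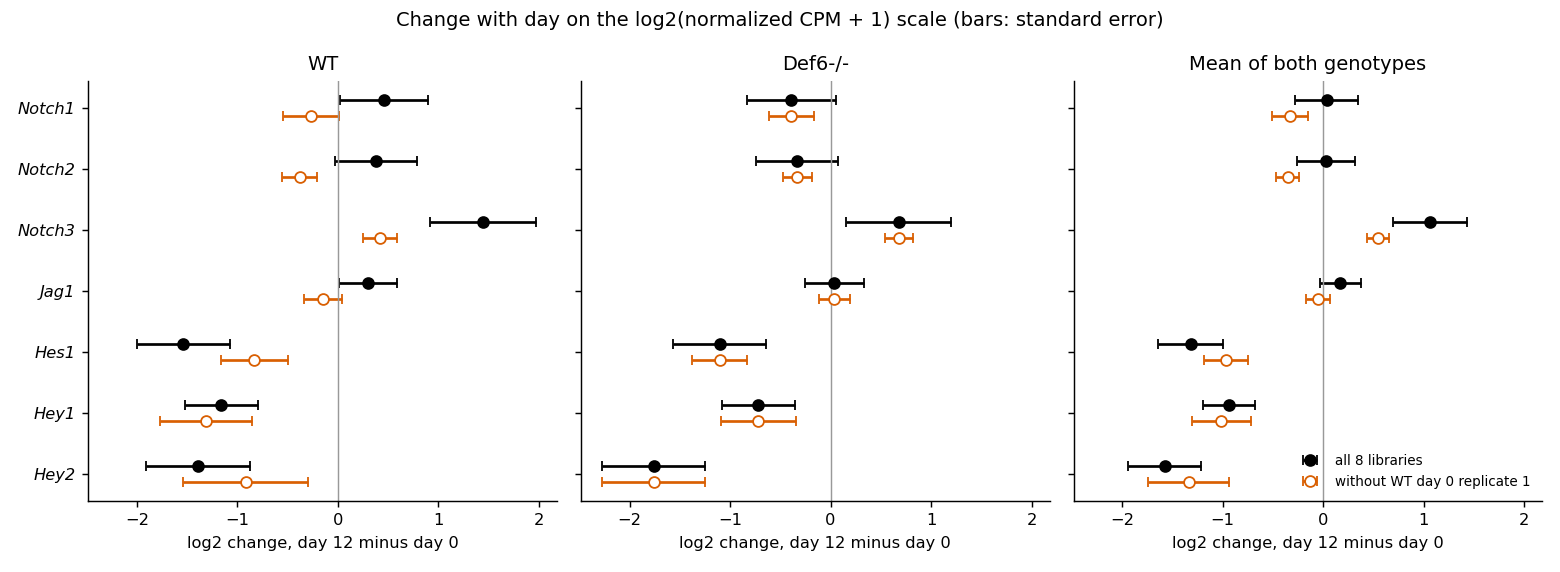
Points give the log2 difference between day 12 and day 0 on the log2(normalized CPM + 1) scale with its standard error for the 7 members tested, in WT, in Def6-/- and averaged over both, in black with all 8 libraries and in orange without WT day 0 replicate 1. Hes1, Hey1 and Hey2 are below 0 and Notch3 above 0 in each panel, and Notch1 and Notch2 in WT move from 0.46 and 0.38 to -0.26 and -0.38 when that library is left out.

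No member passed the test between Def6-/- and WT cells. At day 0 and at day 12, 0 of the 7 passed either rule, an adjusted p under 0.05 or an unadjusted p under 0.05 with more than 1.2-fold change, and 0 had an unadjusted p under 0.05. By the unadjusted rule 2.3% of all genes tested were called at day 0 and 1.4% at day 12, by the adjusted rule 0.0081% at each day, and edgeR and DESeq2 called 0 members at either day. At day 12 the differences (Def6-/- minus WT) were 0.00 for Notch2, 0.07 for Notch3 and 0.11 for Hes1 (SE 0.41, 0.52 and 0.46), and the largest of the 7 was that of Hey1 at 0.41 (SE 0.36). Jag1 was at 60.8 and 60.2 in Def6-/- and 46.2 and 53.6 in WT at day 12, with a difference of 0.28 (SE 0.29, limma unadjusted p = 0.366).

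At day 0 the differences of the receptors and Jag1 turned on 1 library. They were 0.58 for Notch1 (SE 0.44), 0.71 for Notch2 (SE 0.41), 0.84 for Notch3 (SE 0.52) and 0.54 for Jag1 (SE 0.29), with unadjusted p from 0.0964 to 0.223. Without WT day 0 replicate 1 they were -0.15, -0.04, -0.19 and 0.09. Without WT day 0 replicate 2, which leaves replicate 1 as the only WT library of that day, they were 1.30, 1.47, 1.87 and 0.99, and 5 of the 7 members passed the unadjusted rule, where 37.1% of all genes did. The part that the low values of long genes in replicate 1 play in them was not tested beyond this.

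The change with day was also not shown to differ between the genotypes. The differences of the changes (Def6-/- minus WT) were -0.77 for Notch3 (SE 0.74), 0.43 for Hes1 (SE 0.65), 0.44 for Hey1 (SE 0.51) and -0.37 for Hey2 (SE 0.73). The largest of the 7 was that of Notch1 at -0.85 (SE 0.62), and that of Notch2 was -0.71 (SE 0.58). Without WT day 0 replicate 1 they were 0.26 for Notch3, -0.27 for Hes1, 0.59 for Hey1, -0.84 for Hey2, -0.12 for Notch1 and 0.05 for Notch2. With all 8 libraries 0 of the 7 members had an unadjusted p under 0.05 in limma, against 1.13% of all genes by the unadjusted rule and 0% by the adjusted rule. edgeR and DESeq2 called 0 as well. That Hes1 passed in WT and Hey2 in Def6-/- does not make a difference between the genotypes. The standard errors of 0.51 to 0.74 for these genes are as large as many of the changes themselves, so that a difference of this size was not detectable with 2 libraries in a group.

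The rest of the pathway was read from a list of 71 genes, of which 69 were among the gene symbols and 59 passed the filter. Aph1c and Neurl1b reached a mean deposited CPM of 1 only at day 12, and Dlk2 only at day 0. Their being tested is tied to their being high there, and nothing is read from the counts with day that hold them. In WT cells 5 of the 59 were higher and 0 lower at day 12 (12 with an unadjusted p under 0.05, edgeR 4 higher and 1 lower, DESeq2 3 higher and 1 lower). That is 8.47% of the list called, against the 12.7% higher and 5.64% lower among all genes. In Def6-/- cells 3 were higher and 1 lower (6.78% called), against 12% and 4.79%. For the mean of both genotypes 9 were higher and 4 lower (22.0% called), against 19.3% and 12.7%. Between the genotypes 0 passed at day 0, at day 12 or for the change with day, also at an unadjusted p under 0.05 and also by edgeR and DESeq2. The counts with day without WT day 0 replicate 1 were 3 higher and 6 lower in WT, 10 and 8 in Def6-/- and 11 and 11 as a mean of both, beside the shares of all genes given above for that fit. With all 8 libraries the median log2 difference of the 59 genes was 0.18 in WT and 0.04 in Def6-/-, and without WT day 0 replicate 1 it was 0.04 in each.

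Among the proteases that cut the receptor, Aph1c, a γ-secretase subunit, rose in both genotypes. It passed the filter only through day 12, so that its being tested is tied to its being high there. It lay between 0 and 2.12 normalized CPM in the day 0 libraries and between 5.98 and 8.61 in the day 12 libraries, with a log2 difference of 2.28 in WT (SE 0.52, limma adjusted p = 0.0168) and 2.53 in Def6-/- (SE 0.52, adjusted p = 0.0108). In WT it was 1.46 (adjusted p = 0.0325) without WT day 0 replicate 1. Aph1b, a close paralog, was at 11.0 to 18.8 in all libraries. Reads that did not align uniquely, 21.4% to 34.9% of a library, were counted for no gene. Reads that fit both Aph1b and Aph1c could thus be lost. Adam17, a sheddase able to make the first cut, rose in Def6-/- cells (0.57, SE 0.17, adjusted p = 0.0498), from 72.2 to 83.1 at day 0 in all libraries to 103 to 114 at day 12. In WT its difference was 0.47 (SE 0.17, adjusted p = 0.0939). Furin, which cleaves the receptor on its way to the membrane, was the fifth gene called higher in WT (0.53, SE 0.16, adjusted p = 0.0493) and was named after its value was seen. In Def6-/- cells its difference was 0.47 (SE 0.16, adjusted p = 0.0806). The days did not overlap for these 3.

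Among the nuclear partners and ligand modifiers, Tle2, Kat2b and Neurl1b were called higher in at least 1 genotype. Tle2, a Groucho family corepressor that works with HES proteins, rose in both genotypes, from 7.5 to 17.3 normalized CPM over the day 0 libraries to 44.0 to 51.6 over the day 12 libraries. Its difference was 1.90 in WT (SE 0.34, limma adjusted p = 0.00567) and 1.64 in Def6-/- (SE 0.34, adjusted p = 0.0118). Kat2b, an acetyltransferase that joins the activation complex, rose in WT (1.24, SE 0.33, adjusted p = 0.0324), from 8.68 to 17.4 at day 0 to 25.9 to 31.0 at day 12 over all libraries. In Def6-/- cells its difference was 0.93 (SE 0.33, adjusted p = 0.0955). Neurl1b, a ubiquitin ligase that acts on ligands, rose in WT (1.81, SE 0.44, adjusted p = 0.0212), with at most 6.70 normalized CPM in any library. In Def6-/- cells its difference was 1.01 (SE 0.44, adjusted p = 0.157). It passed the filter only through day 12. The lowest library for these 3 was WT day 0 replicate 1, and without it the WT differences were 1.35 for Tle2 (adjusted p = 0.00110), 0.81 for Kat2b (adjusted p = 0.0555) and 1.32 for Neurl1b (adjusted p = 0.0670), so that the Kat2b and Neurl1b calls did not hold. Of the 13 corepressors on the list Tle2 was the only one called in either genotype. Rbpj was at 37.8 to 62.8 at day 0 and 30.6 to 47.6 at day 12, and did not pass.

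With all 8 libraries 4 genes of the list fell in at least 1 contrast. Of these, Dlk2 passed the filter only through day 0. Dlk2, a non-canonical Delta-like protein, fell in Def6-/- cells (-1.87, SE 0.48, limma adjusted p = 0.0290) and was at -1.52 in WT (SE 0.48, adjusted p = 0.0584, and -0.79 without WT day 0 replicate 1), from 3.89 to 12.6 normalized CPM at day 0 to 0.854 to 2.01 at day 12. Averaged over both genotypes Eogt, which glycosylates the extracellular domain, fell by 0.87 (SE 0.21, adjusted p = 0.0135), the neuronal ligand gene Dner by 0.83 (SE 0.24, adjusted p = 0.0297) and Myc, a growth regulator and Notch target in other cells, by 0.90 (SE 0.27, adjusted p = 0.0318). Of the 4 other targets tested, Myc fell and Ccnd1, a cyclin gene, rose (0.49, SE 0.16, adjusted p = 0.0434) in that mean, and Ccnd1 was named after its value was seen. Hes5 had no read in any library, and Nrarp, a feedback inhibitor, had 2 reads in all.

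**Figure D5:**
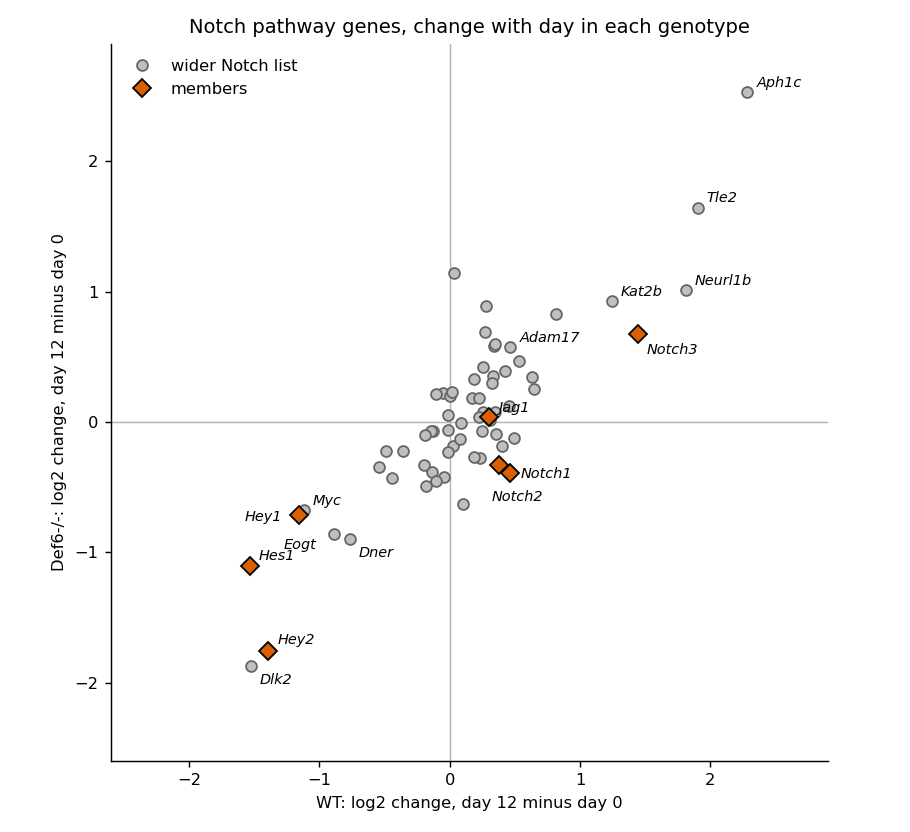
Each point is a gene, with its log2 difference between day 12 and day 0 in WT cells on the horizontal axis and in Def6-/- cells on the vertical axis, for the 7 members tested (diamonds) and the 59 genes of the wider list (circles). Aph1c, Tle2, Neurl1b, Kat2b and Notch3 lie at the upper right and Hes1, Hey1, Hey2 and Dlk2 at the lower left.

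Among all genes tested, those whose log2 levels followed Hes1 most closely over the 8 libraries were Anapc15 (Pearson r = 0.989), Tes (0.988), Map2k3 (0.987), Wdr18 (0.986) and Nsun2 (0.985). For Hey2 they were Pde12 (0.981), Pcp4l1 (0.975), Bak1 (0.972), Trap1 (0.970) and Pmpca (0.969). No other member and no gene of the wider list was among these 10. The 8 points share their day, and for Hes1 also the high value of WT day 0 replicate 1, so the coefficients describe a likeness of levels and carry no test.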

How the data were processed

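Per the labels and the study's methods, the authors sequenced poly-A RNA on an Illumina instrument. Alignment was to mm10 with HISAT2, HTSeq counted reads per gene, and edgeR turned the counts into the CPM that were deposited (fastp is also named in the submitters' notes). Versions, annotation and strand setting are not given in the sources used here. The denominator of the deposited CPM was every read HTSeq handled, of which 28.8% to 35.3% fell on genes. Multiplied back, 99.959% of the positive values were whole reads within 0.05 reads. The exceptions lay in 9 genes, no member among them, and 1 of these, Ptprc, was left out of the macrophage sum.

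CPM was rescaled to reads on genes with TMM factors, and limma 3.58.1 (with trend, R 4.3.3) was fitted to log2(CPM + 1), as 4 group means over 8 libraries. This scale understates the change of low genes. A gene was tested if its deposited CPM averaged 1 or more in any group (12348 genes), with Benjamini-Hochberg adjustment over these. As the values are CPM, edgeR 4.0.16 (quasi-likelihood) and DESeq2 1.42.0 were run as alternatives on the recovered reads, beside pseudocount 0.1, deposited CPM without rescaling, no filter, only the groups compared, a replicate block and leaving out each library. On data simulated for the WT comparison (11783 genes, 200 changed), 93% of 4-fold and 23% of 2-fold changes were called. The simulation gave all genes and libraries the same dispersion, left out low genes and held no shift with gene length. The shares called in these data can therefore be lower, above all for low genes. Exon lengths are the union of exons in GENCODE (GRCm38). Intervals of ratios come from exact binomial (Clopper-Pearson) 95% limits and cover counting error only. The members, lists and tests were chosen with earlier results of these data known, and the exact permutation tests (10 members and 3 receptor shares, unadjusted) and the mean over both genotypes were added after seeing the data. Of the wider list, the text names up to 4 genes per direction and comparison, by smallest p among those called. The methods speak of biological replicates, but the labels do not say whether the 2 libraries of a group came from separate animals, so p-values measure the spread between these libraries.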

Additional observations from a re-analysis of the deposited data

How the results depend on the processing

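Hes1, Hey1, Hey2 and Notch3 kept their direction with day under every alternative run, in WT, in Def6-/- and as a mean of both, while calls moved with the setting. Few reads limit Hey1, Hey2, Heyl, Notch4 and Dll1, and the spread of WT day 0 limits all contrasts with it. Why calls moved was not tested.

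In WT, the members called higher with day were 0 (1, Notch3, with the replicate block) and those called lower 1 (0 with only the groups compared, 0 with pseudocount 0.1 and 0 with no filter). Of the wider list 5 were higher (1 with only the groups compared, and 3 each with pseudocount 0.1, deposited CPM and DESeq2) and 0 lower (2 with deposited CPM, 1 with edgeR, 1 with DESeq2, 3 with the block). In Def6-/-, 0 members were higher (1 with only the groups compared) and 1 lower (2 with only the groups compared, 0 with pseudocount 0.1, edgeR and DESeq2), and of the wider list 3 were higher (6 with only the groups compared, 1 with pseudocount 0.1) and 1 lower (8 with only the groups compared). For the mean of both, 0 members were higher (1 with no filter, which is Heyl, and 1 with DESeq2 and with the block, which is Notch3), and 9 of the wider list (4 with deposited CPM). Between genotypes at day 12, 0 of the wider list passed (4 with only the groups compared, 1 with no filter), and 0 for the interaction (1 with no filter).

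Leaving out each library in turn, the WT members higher ranged from 0 to 4 and lower from 0 to 2, and the wider list from 0 to 20 higher and 0 to 6 lower. In Def6-/- the members ranged from 0 to 1 higher and 0 to 2 lower, the wider list from 0 to 11 and 0 to 8. For the mean of both the ranges were 0 to 3 higher and 1 to 4 lower for members, and 3 to 17 and 1 to 11 for the wider list. Between genotypes they were 0 to 5 members and 0 to 23 of the wider list at day 0, 0 to 0 and 0 to 2 at day 12, and 0 to 5 and 0 to 14 for the interaction. The upper ends at day 0 and for the interaction came without WT day 0 replicate 2, where calls were more frequent among all genes too. Each of these fits leaves 1 library in a group, and nothing is read from these ranges.

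Differences whose sign turned were those near 0 or resting on WT day 0. The Jag1 change in Def6-/- was -0.044 with deposited CPM and -0.0386 with no filter. The mean over both genotypes for Notch1 was -0.0207 with deposited CPM, -0.0215 with no filter, -0.0534 with edgeR and -0.0594 with DESeq2, and for Notch2 -0.0291, -0.0344, -0.0759 and -0.0834. The Hey1 genotype difference at day 0 was 0.0777 with deposited CPM, 0.0162 with edgeR and 0.0167 with DESeq2, and that of Notch2 at day 12 was -0.0122 with no filter. With a library left out, Notch1 ranged from -0.26 to 1.18 in WT, -0.33 to 0.40 as a mean of both, -0.15 to 1.30 between genotypes at day 0 and -0.60 to 0.0576 at day 12. Notch2 ranged from -0.38 to 1.13, -0.36 to 0.40, -0.0446 to 1.47 and -0.12 to 0.13 for the same, and from -1.46 to 0.0485 for the interaction. Notch3 ranged from -0.19 to 1.87 between genotypes at day 0 and -1.79 to 0.26 for the interaction. Jag1 ranged from -0.15 to 0.75 in WT, -0.12 to 0.20 in Def6-/-, -0.0535 to 0.39 as a mean and -0.71 to 0.18 for the interaction. Hes1 ranged from -1.03 to 0.38 at day 0, -0.18 to 0.40 at day 12 and -0.27 to 1.14 for the interaction, Hey1 from -0.40 to 0.34 at day 0, and Hey2 from -0.40 to 0.55, -0.85 to 0.25 and -0.92 to 0.16.

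Samples that share a replicate number had correlated deviations of 0.0023 to 0.327 between groups of 2, so the numbers were not shown to pair the samples across all groups. The highest, 0.327, was between WT day 0 and Def6-/- day 0, against 0.037 between the day 12 groups. At day 0 replicate 1 exceeded replicate 2 for Hes1 by 1.41 in WT and 0.84 in Def6-/- (log2). For Notch1, Notch2 and Notch3 it was the lower in both genotypes. With the replicate block Notch3 in WT was 1.44 (limma adjusted p = 0.0491) and its mean over both genotypes 1.06 (adjusted p = 0.0288).

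Deposited CPM and DESeq2 changed the share of higher calls among all genes called between genotypes at day 0 from 43.0% to 72.3% and 16.5%, at day 12 from 57.8% to 70% and 71.8%, and for the interaction from 62.6% to 59.8% and 80%. No member was among these calls.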
